A study of Canis lupus familiaris with 7 samples.

Results

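The genes of osteoblast differentiation and mineralisation were examined one probe at a time in 7 primary canine osteosarcomas. Of 9 listed genes (RUNX2, SP7, ALPL, IBSP, SPP1, BGLAP, PHEX, DMP1 and SPARC), 5 matched the gene name that the array gives its probes: RUNX2, ALPL, SPARC, BGLAP and PHEX. They had 12 of the 43603 probes and were 5 of the 10792 genes on the array whose name is a RefSeq symbol, and the other 4 listed genes were left out under that rule. RUNX2, ALPL and SPARC were treated as early genes and BGLAP and PHEX as late genes. The tumours came from veterinary clinic patients and were profiled on 1 array each. In 4 tumours the membrane scaffold gene DLG2 was deleted, and in 3 it was wild type; the comparison asks which expression differences go with that deletion. The dogs with a deleted tumour 1 to 4 were 8, 9, 6 and 7 years old with the sex labels MC, FS, MC and FS. The dogs with a wild-type tumour 1 to 3 were 12, 10 and 8 years old with the sex labels FS, FS and MC. No treatment was labelled, and breed was not examined here. The tissue was whole tumour, so fewer cells of a type and less RNA per cell cannot be told apart.

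Osteoblasts arise from mesenchymal precursors under the transcription factor RUNX2. Early on they make alkaline phosphatase (ALPL), which frees phosphate for mineral, and the collagen-binding glycoprotein SPARC (osteonectin). Mature osteoblasts and osteocytes add osteocalcin (BGLAP), a small calcium-binding protein, and the membrane endopeptidase PHEX, which limits the hormone that lowers blood phosphate. Osteosarcoma is defined by tumour cells that lay down bone matrix, and serum alkaline phosphatase is followed in dogs that have it.

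The values are log2 intensities after background correction and quantile normalization, and a difference is always deleted minus wild type. Values of single tumours are given in the order deleted tumours 1 to 4, then wild-type tumours 1 to 3. A level is compared only within a probe, since probes differ in how well they bind. Each array had between 30280 and 34538 probes well above background and 0 saturated spots. The image files were turned into intensities by feature extraction, and the file headers give the time but name no session. Gaps between these times were used here to split the arrays into 2 extraction sessions. The first held deleted tumours 2, 3 and 4 with wild-type tumour 2. Deleted tumours 2 and 3 and wild-type tumour 2 also shared a slide, and the other 4 arrays were alone on theirs. A difference within the first session or the shared slide thus has wild-type tumour 2 as its only wild-type tumour. A difference within the second session has deleted tumour 1 as its only deleted tumour. Over the 32309 probes kept for testing, the arrays of wild-type tumours 1 and 2 correlated at a Pearson r of 0.987, against 0.936 to 0.966 for the other 20 pairs of arrays. They are labelled as separate dogs and were kept as 2 tumours. The DLG2 probe A_11_P068516 read 10.38, 11.44, 10.51 and 10.84 in the deleted group against 10.91, 12.03 and 11.75 in the wild-type group. Its difference of -0.77 (SE 0.35, adjusted p = 0.711) did not pass the test and the groups overlapped.

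The probes below are those on which the values of RUNX2, of the first SPARC probe along chromosome 4 and of 1 of the 2 BGLAP probes rest. They are written 5′ to 3′ in lower case, from the deposited array files.
RUNX2 A_11_P000002199: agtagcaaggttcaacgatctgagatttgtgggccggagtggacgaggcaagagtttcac
SPARC A_11_P00000879: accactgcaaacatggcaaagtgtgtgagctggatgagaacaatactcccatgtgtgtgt
BGLAP A_11_P052906: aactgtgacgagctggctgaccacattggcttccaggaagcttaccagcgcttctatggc

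On the canFam2 build the files place the RUNX2 probe at chrUn:57935870-57935917 on the minus strand, a span shorter than the probe, on sequence not assigned to a chromosome. The SPARC probe lies at chr4:60876356-60876415 on the plus strand, and the BGLAP probe at chr7:44598870-44598929 on the minus strand. The position of a probe relative to exons was not analysed here.

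ALPL, BGLAP, RUNX2 and PHEX had lower means in the deleted group at each of their 8 probes, and SPARC had a slightly higher mean at each of its 4. Over the whole array 48.9% of probes had a lower mean in the deleted group. Tumours within a group spread widely beside these differences. All 12 probes passed the filter on dim probes. Of these, 0 passed the test, beside 0% of all 32309 probes tested by limma. At an unadjusted p under 0.05 there were also 0 of the 12 probes, against 7.29% of all probes, and the methods' t-test on the same values likewise gave 0. Over the alternatives other than slide as a fixed block, that count ran from 0 to 2. It was 2 each with normexp and 75th percentile scaling, without deleted tumour 4 and without wild-type tumour 2, and at most 1 under the others. Slide as a fixed block compares only deleted tumours 2 and 3 with wild-type tumour 2, so its effect sizes alone are given. At the 4 ALPL probes they were -3.19, -1.93, -0.87 and -0.46. At 0 of the 12 probes did the groups separate without overlap, against 8.14% of all probes. The smallest adjusted p over the whole array was 0.117. Over the probe of highest mean of each gene, the median difference was -0.29 for the 3 early genes and -1.13 for the 2 late genes, beside 0.005 over all probes. The early median is the RUNX2 value, between -1.27 for ALPL and 0.06 for SPARC. The late median lies midway between -1.45 for BGLAP and -0.82 for PHEX. The gap between early and late genes was not tested. With slide as a fixed block its direction turned, at -0.55 for the early and -0.31 for the late genes. Over single tumours left out, the early median lay between -0.42 and -0.16 and the late median between -1.88 (without wild-type tumour 2) and -0.52 (without wild-type tumour 3).

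**Figure D1:**
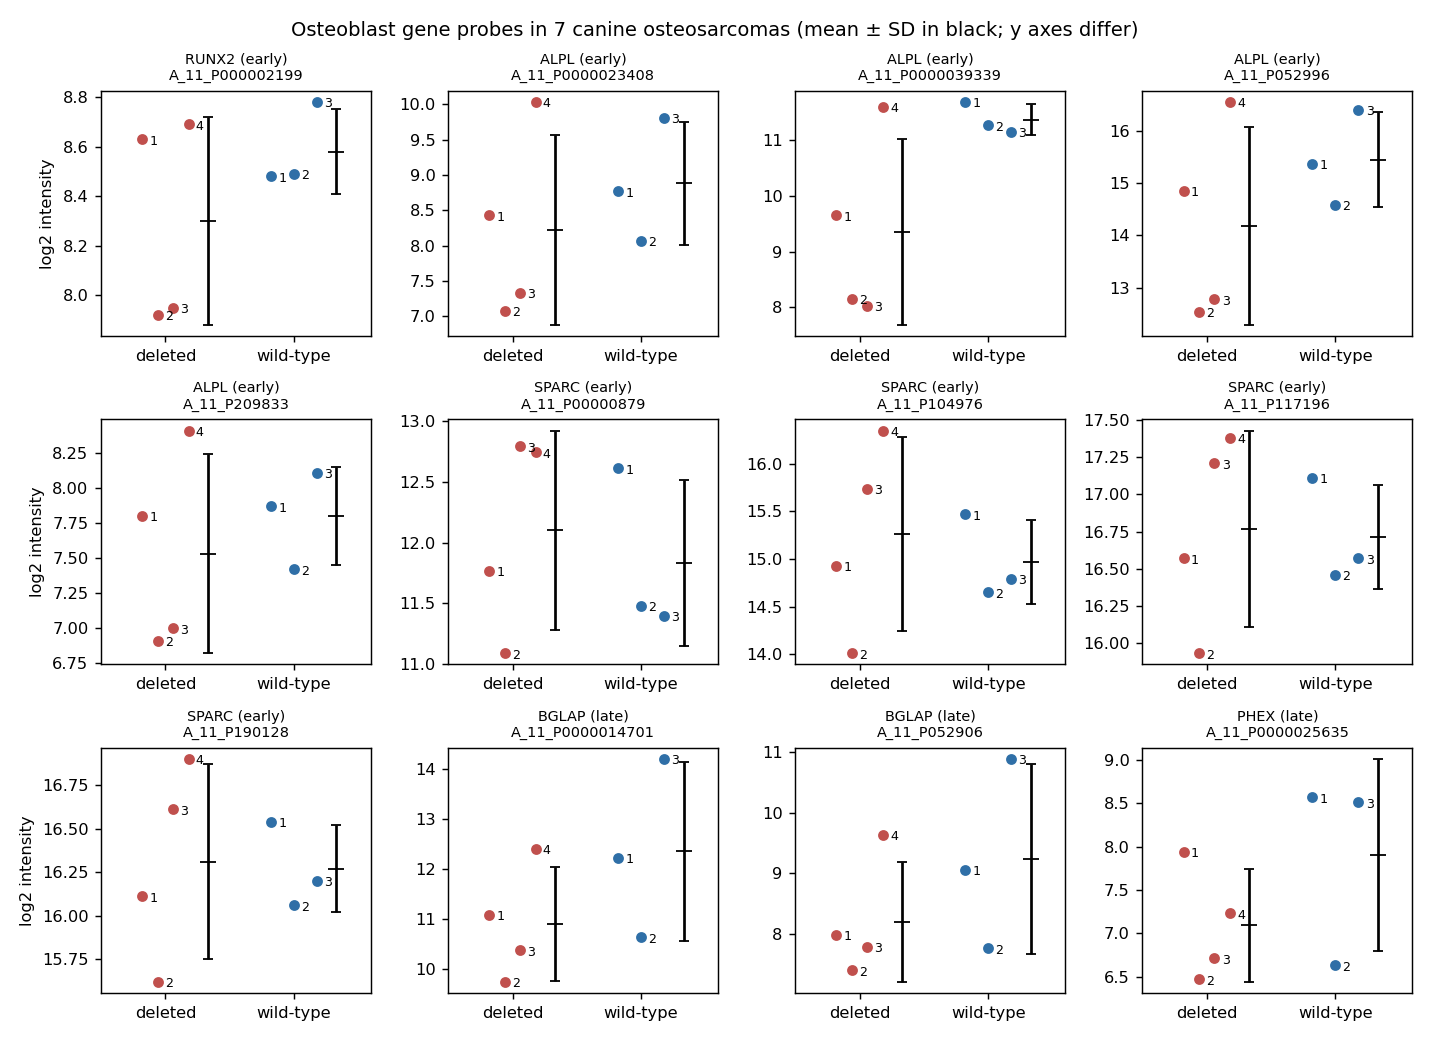
Log2 intensity (y axis, one scale per panel) of the 12 probes of RUNX2, ALPL, SPARC, BGLAP and PHEX in the deleted and wild-type groups; each numbered point is a tumour, and the line with bar is the mean with SD. The groups overlap in all 12 panels, and deleted tumour 2 is the lowest tumour in 11 of them.

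RUNX2, the transcription factor that commits precursors to the osteoblast line, varied less than the other members. Its probe read 8.63, 7.92, 7.95 and 8.69 in the deleted group against 8.48, 8.49 and 8.78 in the wild-type group. Deleted tumours 2 and 3 were low, while deleted tumours 1 and 4 lay among the wild-type tumours. The means were 8.30 ± 0.42 (SD, n = 4) and 8.58 ± 0.17 (SD, n = 3), so deleted tumours stood at -0.29 from wild-type tumours (SE 0.24, 95% interval -0.85 to 0.27, adjusted p = 0.876, exact permutation p = 0.457). The difference was -0.30 within the first extraction session and 0.00 within the second. RUNX2 had the smallest spread of the members, with an SD within groups of 0.34, above that of 66.8% of all probes.

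ALPL, the phosphatase that supplies phosphate at the mineralising surface, was among the most variable probes on the array. The probe A_11_P052996, its brightest (chr2:80454221-80454280), read 14.85, 12.54, 12.78 and 16.55 in the deleted group against 15.37, 14.58 and 16.40 in the wild-type group. Deleted tumour 4 stood above every wild-type tumour and deleted tumours 2 and 3 stood below every one, so that the deleted group alone spanned 4.02 on the log2 scale, or 16.2-fold. The means were 14.18 ± 1.89 (SD, n = 4) and 15.45 ± 0.91 (SD, n = 3), and the difference of -1.27 (SE 1.03, 95% interval -3.73 to 1.19, adjusted p = 0.875, exact permutation p = 0.400) was smaller than the SD of the deleted tumours. The SD within groups, 1.58, exceeded that of 99.6% of all probes. Without deleted tumour 4 the difference was -2.06 (adjusted p = 0.497), and without deleted tumour 2 it was -0.72.

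The 4 ALPL probes did not give the same picture. The probe A_11_P0000039339 (chr2:80453687-80453746) read 9.65, 8.15, 8.02 and 11.60 in the deleted group against 11.69, 11.27 and 11.15 in the wild-type group. Here the wild-type tumours lay close together, 3 deleted tumours were below all of them, and deleted tumour 4 alone lay within the wild-type range. The means were 9.35 ± 1.67 (SD, n = 4) and 11.37 ± 0.28 (SD, n = 3), and the difference of -2.02 (SE 0.86, 95% interval -4.05 to 0.02, adjusted p = 0.687, exact permutation p = 0.171) was the largest among the 12 probes. It was -2.01 within the first extraction session, -1.77 within the second and -3.19 within the shared slide. Each of these has a single tumour in one of the groups. Without deleted tumour 4 it was -2.76 with an adjusted p of 0.265.

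The other ALPL probes showed smaller differences. The probe A_11_P0000023408 read 8.43, 7.08, 7.33 and 10.03 in the deleted group against 8.77, 8.07 and 9.81 in the wild-type group, in the same order of tumours at both ends as the brightest probe. Its difference was -0.66 (SE 0.77, adjusted p = 0.914), and it changed to 0.07 within the first extraction session and -0.86 within the second. The probe A_11_P209833 (chr2:80468544-80468603), nearest to the start of the transcript, had a difference of -0.27 (SE 0.39, adjusted p = 0.932). On 3 of the 4 probes deleted tumour 4 was highest and deleted tumour 2 lowest. All 4 lie on 1 transcript, so they are repeat readings of one gene and not separate evidence.

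SPARC, an abundant glycoprotein that binds collagen and calcium, had a different order of tumours. The printed probe A_11_P00000879 read 11.77, 11.09, 12.79 and 12.74 in the deleted group against 12.61, 11.48 and 11.40 in the wild-type group. Deleted tumour 3, low for RUNX2, ALPL, BGLAP and PHEX, was high here together with deleted tumour 4 and wild-type tumour 1. Its difference was 0.27 (SE 0.51, 95% interval -0.94 to 1.47, adjusted p = 0.951, exact permutation p = 0.686).

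The brightest SPARC probe, A_11_P117196 (chr4:60885280-60885339), read 16.57, 15.93, 17.21 and 17.38 in the deleted group against 17.11, 16.46 and 16.57 in the wild-type group. Both ends of the range were deleted tumours, and the wild-type tumours lay between them. Its difference was 0.06 (SE 0.37, 95% interval -0.83 to 0.95, adjusted p = 0.988). The probes A_11_P104976 (chr4:60884727-60884786) and A_11_P190128 (chr4:60885473-60885532) differed by 0.29 (SE 0.55, adjusted p = 0.952) and 0.04 (SE 0.31, adjusted p = 0.990). All 4 SPARC differences lay between 0.31 and 0.72 within the first extraction session and between -0.27 and -0.20 within the second, and all 4 were below 0 when normexp values were scaled to each array's 75th percentile in place of quantile normalization, from -0.22 to -0.02. That scaling moved the median of all probes to 0.32. With the processed intensity scaled to the same percentile all 4 were above 0, from 0.20 to 0.39.

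BGLAP, the late osteoblast product osteocalcin, spanned the widest range of the 12 probes. The probe A_11_P0000014701 (chr7:44598725-44598784) read 11.09, 9.75, 10.38 and 12.40 in the deleted group against 12.22, 10.64 and 14.19 in the wild-type group. Wild-type tumour 3 was highest and deleted tumour 2 lowest, 4.44 apart on the log2 scale or 21.7-fold, and wild-type tumour 2 lay below deleted tumours 1 and 4. The means were 10.90 ± 1.13 (SD, n = 4) and 12.35 ± 1.78 (SD, n = 3), with a difference of -1.45 (SE 0.94, 95% interval -3.67 to 0.78, adjusted p = 0.823, exact permutation p = 0.286).

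The BGLAP difference depended on single tumours. Without wild-type tumour 3 it was -0.53 and without wild-type tumour 2 it was -2.30, and neither passed the test. It was 0.20 within the first extraction session and -2.12 within the second. The second BGLAP probe, A_11_P052906, read 7.99, 7.41, 7.79 and 9.63 in the deleted group against 9.06, 7.77 and 10.88 in the wild-type group. It kept the highest and the lowest tumour of the first, and its difference was -1.03 (SE 0.82, adjusted p = 0.869).

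PHEX, an endopeptidase of osteoblasts and osteocytes, was the only member with a tumour at background. Its probe A_11_P0000025635 (chrX:17986575-17986634) read 7.94, 6.47, 6.71 and 7.23 in the deleted group against 8.57, 6.63 and 8.51 in the wild-type group. In deleted tumour 2 it was not well above background. Wild-type tumours 1 and 3 were high, and wild-type tumour 2 lay with the lowest deleted tumours. The difference of -0.82 (SE 0.57, 95% interval -2.17 to 0.54, adjusted p = 0.844, exact permutation p = 0.286) was 0.17 within the first extraction session and -0.60 within the second. It was -1.46 without wild-type tumour 2 and -0.48 without wild-type tumour 1.

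**Figure D2:**
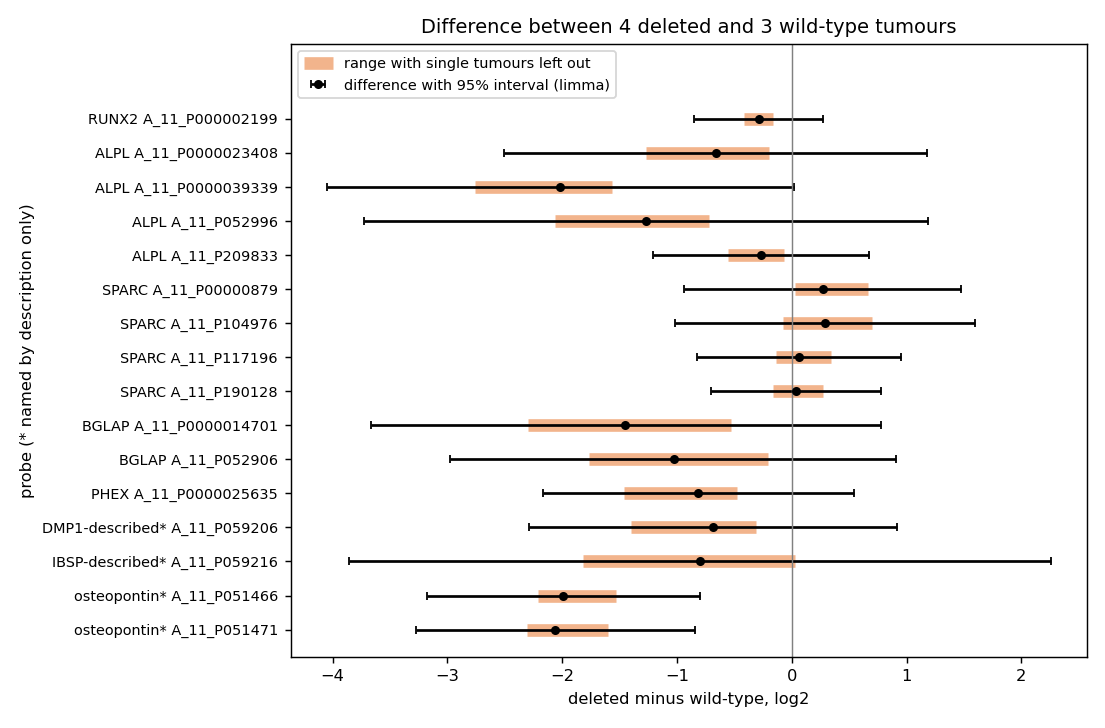
Difference deleted minus wild type on the log2 scale (x axis) for each probe (y axis); points with bars are the limma estimate with its 95% interval, and the orange bar of each probe is the range over single tumours left out. The intervals of all 12 member probes include 0, and those of the 2 probes described as osteopontin do not.

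Single tumours stood out at many of the member probes. Deleted tumour 2 was lowest at 11 of the 12 probes and for all 5 genes at their brightest probe, and deleted tumour 3 was lowest at the remaining ALPL probe. Deleted tumour 4 was highest at 6 probes, wild-type tumour 3 at 3, wild-type tumour 1 at 2 and deleted tumour 3 at 1. The median deviation of the late genes from their own mean over the 7 tumours was 0.03, -1.37, -0.94 and 0.33 in the deleted group against 0.92, -0.85 and 1.87 in the wild-type group. For the early genes it was 0.13, -0.82, -0.47 and 0.63, and 0.37, -0.14 and 0.36. Deleted tumour 4 thus led for the early genes and wild-type tumour 3 for the late genes, and each group held tumours on both sides of the mean for both sets. The SD within groups was above the array's median of 0.25 at all 12 probes, and 11 of them had a larger SD than 75% of the probes on the array.

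**Figure D3:**
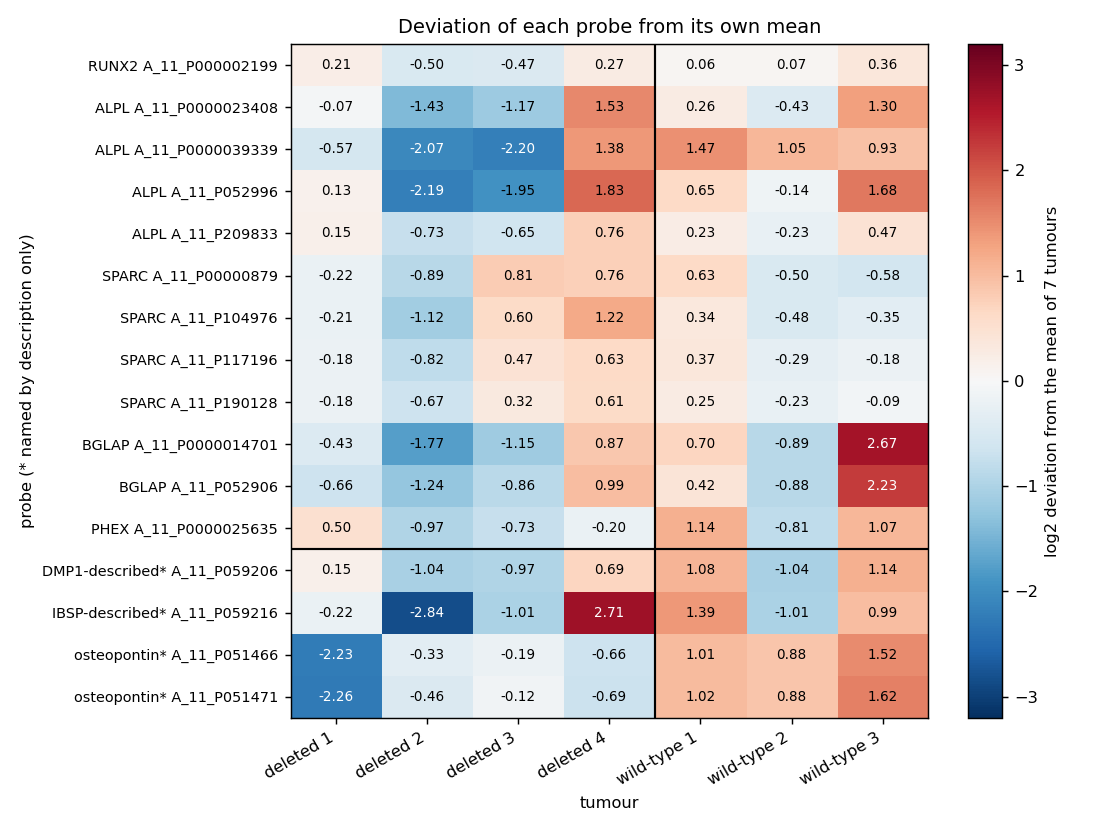
Deviation of each tumour (x axis, deleted then wild type) from the probe's mean over 7 tumours, on the log2 scale (colour), for the 12 member probes and the 4 kept probes named by description (y axis). Deleted tumour 2 is below the mean at all 12 member probes, while deleted tumour 3 is below it except at SPARC.

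Wild-type tumours 1 and 2, so alike over the array, were far apart at the late genes. The median gap between them was 0.12 over all kept probes, and 50 of those probes had a gap of 2 or more. The gap was 1.94 for PHEX, a size reached by 0.173% of all probes, and 1.58 and 1.29 for the 2 BGLAP probes, reached by 0.353% and 0.687%. It was 0.79 for the brightest ALPL probe (2.89%) and from 0.42 (10.2%) to 0.69 (3.75%) at the other ALPL probes. At the brightest SPARC probe it was 0.66 (4.15%), and at the other SPARC probes it ran from 0.48 (7.89%) to 1.13 (1.07%, A_11_P00000879). Wild-type tumour 1 was higher each time. For RUNX2 the pair read 8.48 and 8.49. These shares describe the 2 arrays and test nothing.

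**Figure D4:**
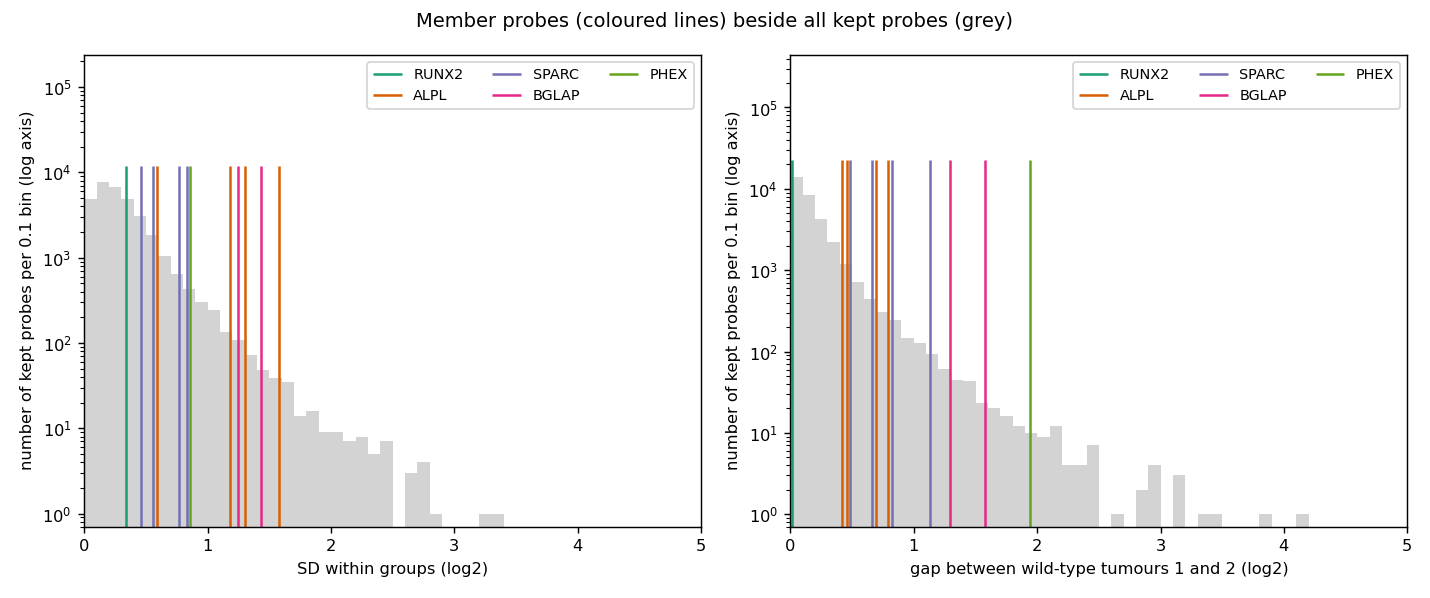
Number of kept probes (y axis, log scale) by SD within groups (left) and by absolute gap between wild-type tumours 1 and 2 (right), both on the log2 scale, with vertical lines at the members. RUNX2 lies within the bulk of probes in both panels, while the brightest ALPL probe in SD and PHEX and BGLAP in both panels lie to the right of it.

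Of the 4 listed genes without a probe under their name, 3 had products that the array's description column names, at 5 probes on chromosome 32. These probes are not members, and they were looked up after the files had been seen. The 2 osteopontin probes, for the phosphoprotein encoded by SPP1, are printed because their overlap matters for counting them; capitals mark the 55 bases they share, at an offset of 5 bases.
osteopontin A_11_P051466: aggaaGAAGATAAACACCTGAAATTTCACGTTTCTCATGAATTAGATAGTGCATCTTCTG
osteopontin A_11_P051471: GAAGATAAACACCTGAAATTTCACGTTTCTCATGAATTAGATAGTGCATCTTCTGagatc

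The first osteopontin probe (chr32:14322142-14322201, plus strand) read 10.59, 12.49, 12.62 and 12.16 in the deleted group against 13.83, 13.69 and 14.34 in the wild-type group. All wild-type tumours lay above all deleted tumours, and deleted tumour 1, unremarkable at the member probes, was the lowest. The means were 11.96 ± 0.94 (SD, n = 4) and 13.95 ± 0.34 (SD, n = 3). The difference of -1.99 (SE 0.50, 95% interval -3.18 to -0.80, limma p = 0.0057) did not pass the test at an adjusted p of 0.50, and the exact permutation p was 0.0571, the smallest that 4 against 3 tumours can give. Groups that do not overlap with deleted lower were found at 4.22% of all probes. The difference was -1.27 within the first extraction session and -3.49 within the second, and -1.53 without deleted tumour 1. The second probe (chr32:14322147-14322206) gave -2.06 (SE 0.51, adjusted p = 0.50) and, sharing most of its bases with the first, is no separate evidence.

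Integrin-binding sialoprotein, the IBSP product that seeds mineral crystals, had a wider range than any of the 12 member probes. Its probe A_11_P059216 (chr32:14160723-14160782) read 13.17, 10.55, 12.38 and 16.10 in the deleted group against 14.79, 12.39 and 14.38 in the wild-type group. Deleted tumours 4 and 2 formed both ends, 5.55 apart on the log2 scale or 46.8-fold, as they did for ALPL. The difference was -0.80 (SE 1.29, adjusted p = 0.939) and became 0.03 without deleted tumour 2.

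Dentin matrix acidic phosphoprotein 1, the DMP1 product of osteocytes, had a probe A_11_P059206 (chr32:14013185-14013244) that read 7.69, 6.50, 6.57 and 8.23 in the deleted group against 8.62, 6.50 and 8.68 in the wild-type group. It was not well above background in deleted tumour 2 or wild-type tumour 2, and wild-type tumours 1 and 3 were high, as they were for PHEX. The difference was -0.69 (SE 0.67, adjusted p = 0.902). The other probe of that description, A_11_P059211, was not well above background on any of the 7 arrays. Wild-type tumours 1 and 2 differed by 2.12 at the first of these probes and by 2.40 at the sialoprotein probe, but by 0.14 at osteopontin.

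Other genes of bone formation were counted in 4 lists. Among regulators of the osteoblast line, 18 of 23 had a tested probe, with 10 higher and 8 lower in deleted tumours and a median difference of 0.02. Among genes for collagen and its processing, 19 of 21 were tested, with 10 higher, 9 lower and a median of 0.02. Among mineralisation genes, 18 of 21 were tested, with 8 higher, 10 lower and a median of -0.02, and of the osteocyte genes 10 of 14, with 5 higher, 5 lower and a median of -0.01. In each list 0 genes passed the test. At the brightest probe of each gene, an unadjusted p under 0.05 was found for 3 regulators, 4 mineralisation genes and 0 genes of the other lists, beside 7.29% of all probes.

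The smallest p-values in these 4 lists belonged to mineralisation genes. STC1 codes for a glycoprotein hormone that acts on phosphate and calcium handling, and its probe A_11_P121561 read 11.23, 11.31, 10.86 and 10.41 in the deleted group against 9.41, 9.68 and 8.92 in the wild-type group. Every deleted tumour was above every wild-type tumour. The difference was 1.61 (SE 0.27, adjusted p = 0.381), and the other STC1 probes gave 0.96 and 0.43. TNC codes for the matrix glycoprotein tenascin C and read 10.77, 10.06, 10.68 and 10.04 against 11.67, 11.53 and 11.93. Here every deleted tumour was below every wild-type tumour, with a difference of -1.33 (SE 0.23, adjusted p = 0.381) and -0.71 at the other TNC probe. SLC20A1, a phosphate transporter, differed by 0.48 (SE 0.12, adjusted p = 0.50), also without overlap. STC1, TNC and SLC20A1 were taken for the smallest p among the 18 tested genes of their list. The groups separated at 4 of these 18 genes, beside 8.14% of all probes.

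Among the regulators, the transcription factors JUNB, FOSL2 and ZEB1 differed by 0.24 (SE 0.08, adjusted p = 0.612), 0.34 (SE 0.14, adjusted p = 0.675) and 0.32 (SE 0.13, adjusted p = 0.683). The groups separated at each of these probes, as they did at 8.14% of all probes. The 3 genes were taken for the smallest p of their list. The second FOSL2 probe gave 0.13 (SE 0.12), and the other ZEB1 probes gave 0.24 to 0.46. In the collagen list, CRTAP, a subunit of the complex that modifies collagen prolines, differed by 0.51 (SE 0.23, adjusted p = 0.701) and by 0.49 (SE 0.14) at its other probe. P4HA2 differed by -0.31 (SE 0.29) and by -0.07 (SE 0.38) at its other probe, and PLOD1 by 0.12 (SE 0.11). In the osteocyte list, CD44 differed by 0.44 (SE 0.23), HYOU1 by 0.33 (SE 0.25) and FGFR1 by -0.22 (SE 0.19), with adjusted p from 0.762 to 0.882.

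The genes whose deviations over the 7 tumours were most like those of a member were sought among 9331 other named genes, by the mean absolute log2 difference. For the brightest ALPL probe they were GALNT3, COL13A1 and SNAP91, at 0.55, 0.62 and 0.66, beside a mean absolute deviation of 1.22 for the ALPL probe itself. GALNT3, an enzyme that adds sugars to the phosphate hormone FGF23, read 8.40, 8.10, 7.91 and 11.37 in the deleted group against 9.61, 9.05 and 10.37 in the wild-type group. As with ALPL, deleted tumour 4 was highest and wild-type tumour 3 next. For BGLAP they included MAOB and MEF2C, at 0.52 and 0.54 against 1.21 for BGLAP. For PHEX they were HAMP, IRX5 and HDAC9, at 0.26, 0.36 and 0.38 against 0.78 for PHEX. For SPARC they were STAT2, ZNF281 and PPOX, at 0.14, 0.14 and 0.15 against 0.42, and for RUNX2 they were PNO1, RDH14 and KRIT1, at 0.07, 0.07 and 0.08 against 0.28. A probe with little spread has close neighbours for that reason alone, and likeness over 7 tumours is a description.

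Markers of other cell types differed between single tumours, and some lists leaned one way between the groups. Of the osteoclast markers tested, 6 of 7 were lower in deleted tumours (median difference -1.35). All 10 cartilage markers (median 0.81), all 8 endothelial markers (0.43) and all 5 adipocyte markers (0.82) were higher. For the adipocyte list the median deviation was 3.12 in deleted tumour 4 and from -0.61 to -0.28 in the other deleted tumours. In the wild-type tumours it was from -0.58 to -0.36. The counts were 5 higher and 8 lower for leukocyte markers (-0.14), 6 higher and 4 lower for fibroblast markers (0.26) and 4 higher and 2 lower for skeletal muscle markers (0.08). Osteoclast markers, of which 6 of 13 listed genes were above background on all 7 arrays, had a median deviation of 1.78 in wild-type tumour 3, the tumour with the highest BGLAP, and from -0.98 to 0.42 in the others. Their summed intensity lay between 11000 and 70400 in the deleted and between 32800 and 228000 in the wild-type group, and MMP9 and CTSK were the brightest. MMP9 read 16.84 and CTSK 16.36 in wild-type tumour 3. The part of these cells in the BGLAP values was not tested.

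Cartilage markers were above background on all arrays for 8 of 13 listed genes, with summed intensity between 4230 and 57900 in the deleted and between 3180 and 15200 in the wild-type group. The brightest probes weigh most in such a sum. In deleted tumour 1 the cartilage sum was 28000, with COMP at 14.54 on the log2 scale, while the list's median deviation was -0.68. Their median deviation was 1.64 in deleted tumour 2 and 0.81 in deleted tumour 3, the tumours lowest for ALPL, and at most 0.18 in the others. Adipocyte markers (4 of 6) had a median deviation of 3.12 in deleted tumour 4, the tumour with the highest ALPL, and below 0 in the other tumours, with summed intensity up to 15400 in the deleted and from 842 to 922 in the wild-type group. Fibroblast markers (10 of 10) had their lowest deviations in deleted tumour 4 (-0.75) and wild-type tumour 3 (-0.49), with sums of 88300 to 188000 and of 28900 to 136000. Endothelial markers (7 of 11) were highest in deleted tumour 3 (1.08), with sums of 8960 to 24000 in the deleted and 6480 to 10300 in the wild-type group. Leukocyte markers (12 of 14) were highest there too (0.68), with sums of 5370 to 26400 and of 9460 to 18300. Skeletal muscle markers deviated by at most 0.46, and of the erythroid markers 0 were tested. In each of these lists 0 genes passed the test, and the part of any of these cells in the members' values was not tested.

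Sex label and age were examined beside deletion status. With the sex label as a covariate the early and late medians were -0.30 and -1.26, and with age they were -0.41 and -1.65, with 0 member probes past the test in either. A test of whether the difference depended on sex label gave 0 calls among 32303 probes (smallest adjusted p = 0.315) and 0 member probes at an unadjusted p under 0.05. It rests on wild-type tumour 3 as the only wild-type tumour labelled MC.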

How the data were processed

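Total RNA of 7 canine osteosarcomas, 4 DLG2 deleted and 3 DLG2 wild type per the labels, was hybridised by the authors to 1-colour (Cy3) Agilent canine arrays. Per the file headers, the deposited values are spot and local background intensities on a linear scale, written by Agilent Feature Extraction 10.7.3.1. The study's methods name RMA and an unspecified batch correction, so its normalised values were not rebuilt here.

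Mean intensity was corrected with the median background by normexp (offset 50) in limma 3.58.1 (R 4.3.3), quantile-normalized and put on the log2 scale. Of 45220 spots per array, 1417 controls were left out, as were 144 values with an outlier mark. Replicate spots were averaged to 43603 probes, and 32309 that were well above background on at least 3 arrays were tested. A probe was called at an unadjusted limma p under 0.05 with a Benjamini-Hochberg adjusted p under 0.1, two-sided, without covariates. Exact permutation tests (two-sided) ran over the 35 splits into 4 and 3, with a smallest p of 0.0571. A difference on the log2 scale understates changes of dim probes. The number of arrays limits the precision, and p-values measure the spread between these dogs.

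Every member probe is given. Of each pathway list the 3 genes with the smallest p at the probe of highest mean are named, of each cell type list the brightest genes where a list is described in full, and for each member the 3 named genes with the most similar deviations, of which 1 is not reported here. The members and lists were chosen with earlier results of these data known. The alternatives were other background corrections, scalings, filters and thresholds, the methods' t-test, trend and robust options, array weights, slide and extraction session, sex label, age, single tumours left out, wild-type tumours 1 and 2 averaged, and all probes per gene. In simulated data, 200 of 32231 probes, drawn from the whole array, were changed between 4 and 3 arrays. Recovered were 41% of log2 changes of 1, 82.5% of changes of 2 and 96% of changes of 3. In these runs 17, 25 and 24 unchanged probes were also called, and with 0 changed 1 probe was called. All 12 member probes had an SD within groups above the array's median, and recovery at such probes was not simulated apart. Promoters were not analysed here.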

Additional observations from a re-analysis of the deposited data

Results flagged for a closer look

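In deleted tumour 4 the adipocyte list stood apart from the other deleted tumours, with a gap to the nearest of them of 0.912 of the group's whole range. It was the 1 such gap among 41 groups of 4 tumours examined, and chance gives about 1 in 20. Of the adipocyte markers, ADIPOQ, PLIN1, CIDEC and LPL were highest in deleted tumour 4, while LEP was lowest there, at 7.96. CIDEC was well above background on only 3 arrays. The same tumour had the highest ALPL at 3 of 4 probes.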

How the results depend on the processing

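The count of member genes past the test was 0 under all 23 alternatives. Over 22 settings, 248 of 263 member probe differences kept their direction and 15 reversed, all of them at SPARC. Scaling to the 75th percentile after normexp gave SPARC differences of -0.05 (A_11_P00000879), -0.02 (A_11_P104976), -0.11 (A_11_P117196) and -0.22 (A_11_P190128), and with age as a covariate the last 3 were -0.08, -0.18 and -0.19. With single tumours left out, A_11_P104976 lay between -0.08 and 0.70, A_11_P117196 between -0.14 and 0.34, A_11_P190128 between -0.16 and 0.27, and the sialoprotein probe between -1.82 and 0.03. With slide as a fixed block, which compares only deleted tumours 2 and 3 with wild-type tumour 2, the DMP1 probe gave 0.03 and P4HA2 0.21. The early median lay between -0.55 and -0.16 and the late median between -1.88 and -0.31 over all alternatives. The values -0.55 and -0.31 came from slide as a fixed block. Of all probes, 0 were called at first, 10 with the processed intensity scaled to the 75th percentile, 4 with it quantile-normalized, 23 with normexp and the 75th percentile, 1 without background correction, 4 with trend and robust options, 3 with array weights and 1 with slide as a random block. With single tumours left out the count lay between 0 and 46, the latter without wild-type tumour 3. The cause was not tested. No paired analysis was possible because the replicate numbers follow the order of the samples and only name a tumour. With 4 and 3 arrays, log2 changes of 1 were recovered in 41% of the simulated cases, at probes drawn from the whole array. That share does not describe the member probes, since all 12 had an SD within groups above the array's median. The dim PHEX and DMP1 probes are also limited by their signal over background.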
